A study of Mus musculus with 6 samples.

Results

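The miR-297, miR-466, miR-467 and miR-669 families were examined in primary dermal fibroblasts of newborn mice, as 80 of the 1907 mature microRNA (miRNA) names counted by small RNA sequencing. The members are defined by name: every row whose name begins with miR-297, miR-466, miR-467 or miR-669, followed by a letter, a hyphen or nothing. They comprise 6 names of the miR-297 family, 31 of miR-466, 13 of miR-467 and 30 of miR-669. The 3 control libraries (ctrl, genotype Col1a2Cre-wt) came from mice whose Cre recombinase is expressed in fibroblasts under Col1a2 control. The 3 caNrf2 libraries (genotype Col1a2Cre-caNrf2) came from mice with the same Cre and a constitutively active mutant of Nrf2, the transcription factor of antioxidant and detoxification genes. All mice were newborn and of mixed C57Bl/6 and FVB/N background, each library came from a different mouse per the series design, and the cells grew for 6 days and were taken at passage 1.

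A miRNA is cut from a hairpin precursor whose 5p and 3p arms can each give a mature strand. The bases just after the first one, the seed, pair with target transcripts. The 4 families are best known from a rodent-specific array of hairpins in an intron of Sfmbt2, a gene of a Polycomb group protein that is imprinted and expressed from the paternal copy in the placenta. Many of the hairpins are near copies of each other, rich in alternating U and G on one arm and in A and C on the other. Reads from such copies are hard to assign, so the levels of closely related members are uncertain where the counting could split them.

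In the GENCODE M21 annotation (GRCm38, the mm10 build), 81 precursors carry a name of the families. Of these, 71 lie inside Sfmbt2 (chromosome 2, 10370510 to 10595253, plus strand), all in 1 intron, between 10466663 and 10518279. The intron spans 10461473 to 10523944 and is intron 11 of the principal transcript. The array holds 5 miR-297, 23 miR-466, 14 miR-467 and 29 miR-669 precursors. The order miR-467, miR-466, miR-669 occurs 11 times in a row of 3 neighbours. The other 10 precursors lie on 7 other chromosomes. By name, 64 members have precursors in the Sfmbt2 intron only, 5 have precursors both there and elsewhere, and 9 have a precursor elsewhere only. The 2 arms of miR-466a match no precursor by name.

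Mature sequences of 8 members were in the RefSeq table (GRCm38.p6), all 8 from precursors outside Sfmbt2. They are shown because no other member sequence was held, and they were hardly counted. Capitals mark the seed, bases 2 to 8 counted from the 5′ end.
miR-466q: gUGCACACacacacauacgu
miR-466k: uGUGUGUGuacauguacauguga
miR-466j: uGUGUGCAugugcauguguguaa
miR-466i-3p: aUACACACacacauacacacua
miR-467f: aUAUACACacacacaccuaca
miR-467g: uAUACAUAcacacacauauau
miR-467h: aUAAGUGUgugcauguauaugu
miR-669n: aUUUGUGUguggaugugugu
In GRCm38.p6 the strands lie at chr3:28419988-28420007 (miR-466q, plus strand), chr3:85467396-85467418 (miR-466k, plus), chr10:60960802-60960824 (miR-466j, plus) and chr13:17747552-17747573 (miR-466i-3p, plus). The others lie at chr11:69635419-69635439 (miR-467f, minus), chr5:34732872-34732892 (miR-467g, minus), chr9:115381898-115381919 (miR-467h, plus) and chr3:115979905-115979924 (miR-669n, plus). No 2 of these share a seed: there are 8 seeds among the 8 members. The run UGUGUGU is present in 3 of them and ACACACA in 4, against 11 (0.655%) and 5 (0.298%) of the 1679 mature names in the table, these members included. Both runs were searched on the mature strand as written, and neither overlaps the other.

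These 8 members had 6 counts in all over the 6 libraries. miR-466k had 3 counts, miR-466q had 2 and miR-467h had 1, while miR-466i-3p, miR-466j, miR-467f, miR-467g and miR-669n had none. A count of 0 in the deepest library allows a level of up to 0.106 counts per 1e6 of the library total (3 counts). miR-466i-5p, the ninth member placed outside Sfmbt2 only, also had no count. The 64 members placed in the Sfmbt2 intron only held 24572 of the member counts, or 97.3%. Nearly all counts of the families in these fibroblasts thus stood under names that the annotation places in the Sfmbt2 intron.

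The libraries held 10443268 to 28237159 counts, and 697 miRNAs had enough counts to be tested. Levels are in CPM, counts scaled to a common library size with edgeR's TMM factors. The 6 fibroblast and mesenchymal marker miRNAs summed to 379569 to 387354 CPM in controls and 425517 to 462352 CPM in caNrf2 libraries. They did not move together: miR-22-3p, miR-143-3p and miR-145a-5p were higher without overlap, while miR-214-3p and miR-21a-5p overlapped. miR-199a-5p was lower without overlap (7583 to 9082 CPM in controls and 5548 to 6279 CPM in caNrf2 libraries). Of 7 pluripotent and trophoblast markers, 5 had a count, and the list summed to 0.573 to 2.74 CPM over all libraries, with miR-302a-3p and miR-302b-3p at 0. Blood markers summed to 36.2 to 69.4 CPM in controls and 157 to 234 in caNrf2 libraries, all 5 with counts. miR-142a-5p gave most of this (23.9 to 51.2 and 119.7 to 181 CPM), miR-142a-3p and miR-223-3p were also higher without overlap, and miR-150-5p (2.89 to 3.41 and 2.67 to 3.26 CPM) and miR-451a overlapped. Muscle markers summed to 335 to 411 and 543 to 720 CPM, with miR-1a-3p at most 0.482 CPM. Most of this sum was miR-133a-3p (330 to 407 and 534 to 712 CPM). Neural markers summed to 144 to 153 and 198 to 203 CPM, with miR-124-3p at most 0.332 CPM. Most of the neural sum was miR-128-3p (138 to 144 and 184 to 191 CPM). Epithelial markers overlapped, at 1011 to 1820 and 1573 to 2074 CPM. The part of these cell types in the values below was not tested.

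The families together made up a small and even share of the miRNA pool. They held 2459, 3339 and 4336 counts in control libraries 1, 2 and 3 and 3483, 5718 and 5914 in the 3 caNrf2 libraries. This is 0.0203% to 0.0254% of a library. Their summed level was 237, 203 and 214 CPM in the controls and 244, 238 and 212 CPM in the caNrf2 libraries. The groups overlapped, with means of 218 ± 17.2 and 231 ± 17.2 CPM (SD, n = 3) and a ratio of 1.06. Summed levels were not tested, since the members were chosen with earlier results known.

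The miR-467 family was the largest contributor, with 42.6% of the member counts. It summed to 101, 89.3 and 90.8 CPM in the controls and 104, 100.1 and 89.5 CPM in caNrf2 libraries, a ratio of 1.05. The miR-466 family held 28.5% and summed to 70.9, 59.8 and 62.0 CPM in controls and 70.0, 66.8 and 58.3 CPM in caNrf2 libraries. The ratio of its group means was 1.01, the closest to 1 of the 4. The miR-669 family held 27.6% and summed to 63.1, 52.2 and 59.1 CPM in controls against 66.8, 66.8 and 60.9 CPM in caNrf2 libraries. Its groups overlapped through control library 1 and caNrf2 library 3, with a ratio of 1.12.

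The miR-297 family was the smallest and the one whose groups did not overlap. It held 24, 30 and 44 counts in control libraries and 47, 94 and 83 in caNrf2 libraries. Its summed level was 2.31, 1.83 and 2.17 CPM in controls and 3.30, 3.91 and 2.97 CPM in caNrf2 libraries. Every caNrf2 library stood above every control, and the means were 2.10 ± 0.25 and 3.39 ± 0.47 CPM (SD, n = 3), a ratio of 1.61. Taken singly, 41.6% of all tested miRNAs had groups without overlap, a share for single names and not for sums. Within the sum, miR-297b-5p had group means of 0.386 and 0.956 CPM, and miR-297a-5p, the most abundant, 0.800 and 0.779 CPM. The family gave 1.28% of the member counts, so the sum of the 4 families hardly shows the difference.

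**Figure D1:**
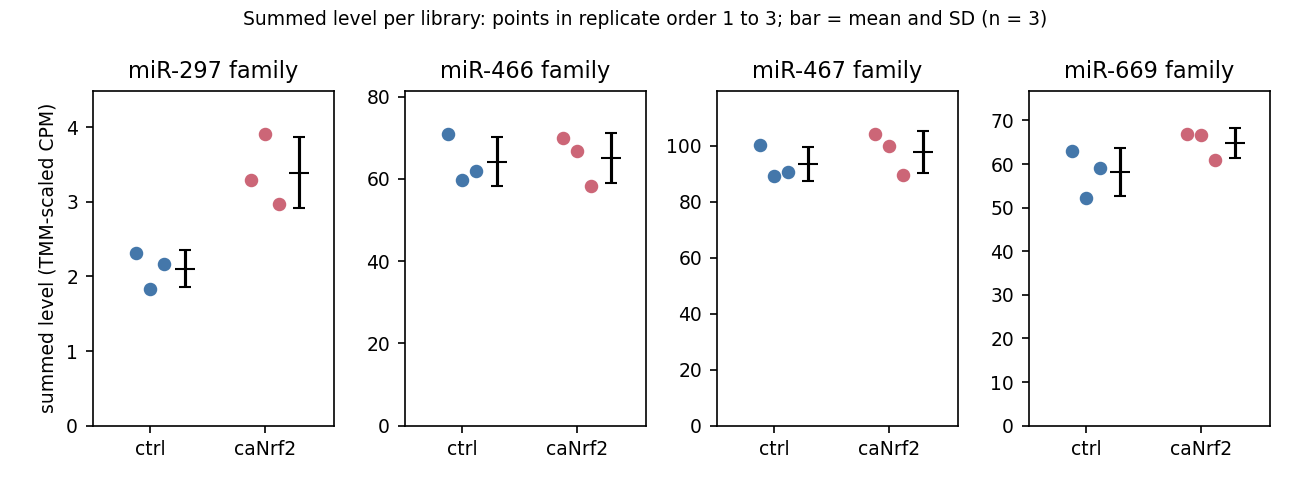
Summed level of each family per library in TMM-scaled CPM (vertical axes from 0, a scale for each family); points are libraries 1 to 3 of each group, bars are mean and SD (n = 3). Only the miR-297 points separate, at 1.83 to 2.31 CPM in controls and 2.97 to 3.91 CPM in caNrf2 libraries. Of all tested miRNAs taken singly, 41.6% separate.

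Counting was concentrated in few members. Of the 80, 13 had no count in any library, 12 had 1 to 9 counts over the 6 libraries, and 55 had at least 10. The 7 leading members held 67.7% to 71.1% of the member counts of a library. In order of mean level over all libraries they were miR-467c-5p (31.7 CPM), miR-466b-3p (27.3), miR-669a-5p (26.9), miR-467d-5p (26.6), miR-467a-5p (21.3), miR-467e-5p (11.7) and miR-466c-3p (10.4). The most abundant, miR-467c-5p, ranked 280 of 1907 names. Between 54 and 61 members had at least 1 count in a library. With every library thinned to 10443268 counts the expected number was 54.0 to 56.9, a narrower range.

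The members were compared between genotypes with edgeR's quasi-likelihood test over all 697 tested miRNAs (Benjamini-Hochberg adjustment, threshold 0.05). Of 37 tested members, 1 was called, miR-297b-5p, higher in caNrf2 fibroblasts, and none was called lower. That is 2.7% of the members, against 25.7% called over all tested miRNAs, 14.1% higher and 11.6% lower. At an unadjusted p under 0.05 the edgeR fit had 3 members higher and 0 lower, against 21.1% and 16.9% of all tested miRNAs. DESeq2 had 1 higher and 0 lower, against 16.4% and 17.6%. DESeq2 called no member (smallest adjusted p 0.08), against 27% of all tested miRNAs.

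Most tested members are scarce, and calls among them were few at either level. Of the 30 with a mean under 10 CPM 1 was called (3.33%), against 17.8% of all 326 tested miRNAs in that range, 14.4% called higher. Of the 7 leading members none was called (smallest edgeR adjusted p 0.169), against 32.6% of the 371 tested miRNAs that averaged 10 CPM or more. Their 95% intervals all lay between log2 fold changes of -0.55 and 0.56, that is between 0.684-fold and 1.48-fold. Over the 37 members, 30 intervals lay within a 2-fold change in either direction. The median log2 fold change was 0.08 for the members and 0.03 for all tested miRNAs, and the median size without sign was 0.16 and 0.29, with median SEs of 0.23 and 0.16. Under 10 CPM the median log2 fold change was 0.07 for the members and 0.15 for tested miRNAs outside the families. Filtering shaped this set: miR-297b-5p and miR-669o-3p reached the minimum level of 0.540 CPM in the 3 caNrf2 libraries and in no control. miR-297a-3p reached it in the 3 caNrf2 libraries and in 1 control, where 3 libraries are needed.

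**Figure D2:**
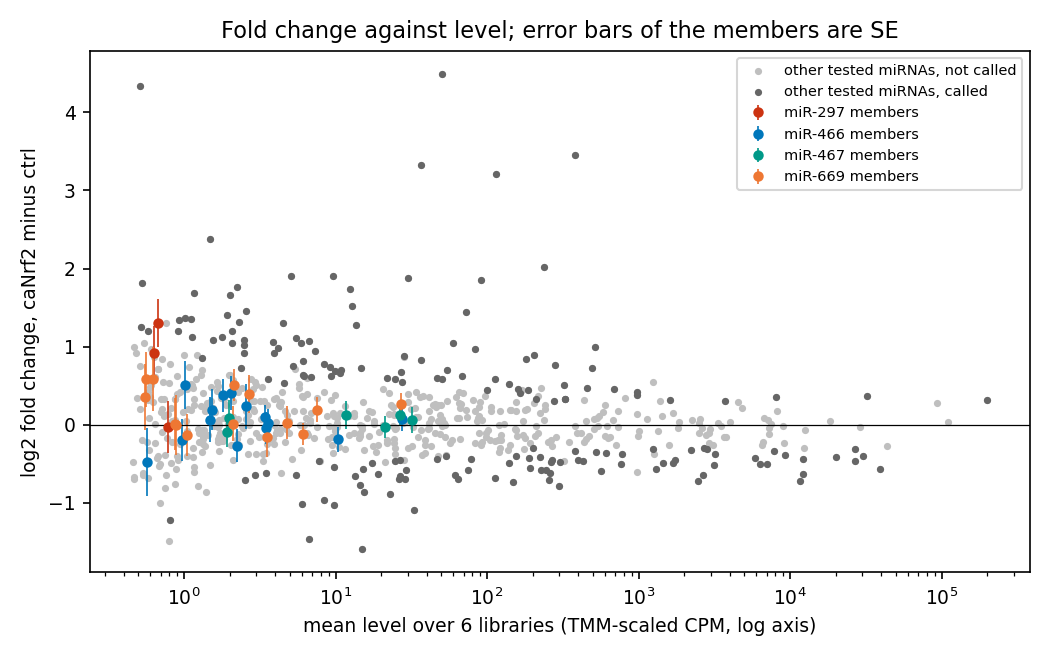
Log2 fold change (caNrf2 minus ctrl, vertical axis) against mean level in TMM-scaled CPM (log axis) for 697 tested miRNAs; coloured points are the 37 members with SE bars, dark grey points are other miRNAs called at an adjusted p under 0.05. The 7 members above 10 CPM lie between -0.19 and 0.27, and miR-297b-5p stands highest among the members at 1.30.

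The group ranges did not overlap for 6 of the 37 tested members (16.2%, against 41.6% of all tested miRNAs). All 6 were higher in caNrf2 libraries: miR-297a-3p, miR-297b-5p, miR-466g, miR-669a-5p, miR-669d-5p and miR-669o-3p. Of these, 5 averaged under 10 CPM, a range that leaned the same way outside the families. There, 46 of 296 tested miRNAs were called higher in caNrf2 and 11 lower. For miR-297b-5p and miR-669o-3p this direction was favoured by the filter, which they passed through the caNrf2 libraries alone. The same holds for miR-297a-3p, since only 1 control reached the minimum level and 3 libraries are needed. miR-466g, miR-669a-5p and miR-669d-5p reached it in 3 controls and 3 caNrf2 libraries and are without that limit. The plot of the tested members by library shows these 6 gaps beside the overlap of the other members.

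**Figure D3:**
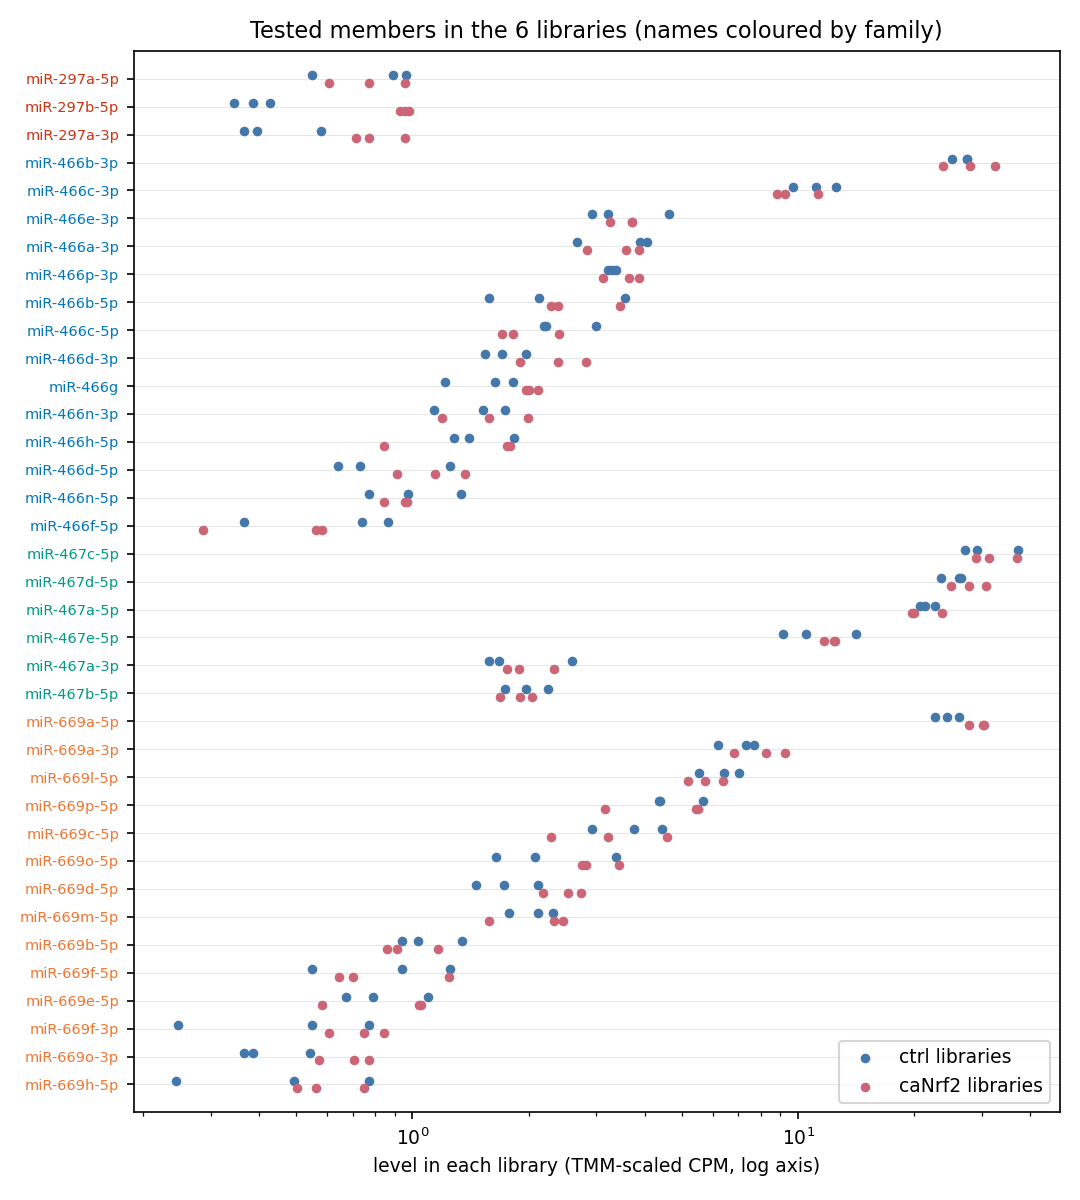
Level of the 37 tested members in each library (TMM-scaled CPM, log axis), 3 control and 3 caNrf2 libraries a row, sorted by level within families. The rows of miR-297b-5p (0.346 to 0.426 CPM in controls, 0.931 to 0.982 CPM in caNrf2) and miR-669a-5p (22.6 to 26.1 and 27.7 to 30.3 CPM) are 2 of the 6 without overlap.

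miR-297b-5p is cut from the 5p arm of Mir297b, which lies 141157 bases from the start of Sfmbt2 (chromosome 2, 10511667 to 10511775). It had 4, 7 and 7 counts in control libraries and 14, 23 and 26 in caNrf2 libraries. Its level was 0.385, 0.426 and 0.346 CPM in controls and 0.982, 0.956 and 0.931 CPM in caNrf2 libraries. The SDs were 0.040 and 0.026 CPM, but at 4 to 26 counts a library this closeness is no measure of precision. The ratio of means was 2.48, and the fitted rise was 1.30 ± 0.31 on the log2 scale (SE; adjusted p = 0.0108 in edgeR; 95% interval 0.62 to 1.98), with 3 of 3 caNrf2 libraries above every control. It entered this test only through the caNrf2 libraries, where it is high, which limits the weight of this p. With no filter on low counts, where that choice does not arise, the adjusted p was 0.022 in edgeR. The call was lost without control library 3 (edgeR adjusted p = 0.051) or caNrf2 library 2 (0.0505) and in DESeq2 (0.08). Over all alternatives that could be fitted the adjusted p ran from 0.011 to 0.08.

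The other miR-297 strands were as scarce. miR-297a-3p had 6, 6 and 8 counts in controls and 11, 23 and 20 in caNrf2 libraries, or 0.578, 0.365 and 0.395 CPM against 0.772, 0.956 and 0.716 CPM. The groups did not overlap, and with a log2 fold change of 0.92 ± 0.34 the difference missed the threshold (edgeR, adjusted p = 0.0719). Only 1 control reached the filter's minimum level, so miR-297a-3p too was tested because of the caNrf2 libraries, which limits the weight of both results. Its sister strand miR-297a-5p had 0.963, 0.548 and 0.889 CPM in controls and 0.772, 0.956 and 0.609 CPM in caNrf2 libraries. These values overlapped throughout (log2 fold change -0.03 ± 0.33, edgeR adjusted p = 0.961). The name miR-297a has 4 precursors, Mir297a-2, Mir297a-3 and Mir297a-4 in the Sfmbt2 intron and Mir297-1 on chromosome 7 (10958437 to 10958512, minus strand), and its counts do not tell them apart.

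The remaining miR-297 names were not tested. miR-297c-3p had 0, 3 and 6 counts in controls and 7, 9 and 12 in caNrf2 libraries. Corrected for depth the groups did not overlap, at up to 0.296 CPM and from 0.374 CPM. miR-297b-3p, the sister strand of the called member, had 3, 5 and 5 counts in controls and 4, 16 and 7 in caNrf2 libraries. Its means were 0.28 ± 0.03 and 0.399 ± 0.231 CPM (SD, n = 3), and the higher mean rested on caNrf2 library 2. miR-297c-5p had 2 counts in all.

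In the miR-466 family the 3p strands lead. miR-466b-3p had 284, 411 and 554 counts in controls and 462, 673 and 664 in caNrf2 libraries. At 27.4, 25.0 and 27.4 CPM in controls and 32.4, 28.0 and 23.8 CPM in caNrf2 libraries its groups overlapped, with the highest and the lowest value both in caNrf2 libraries (log2 fold change 0.08 ± 0.15, edgeR adjusted p = 0.739). The name has 8 precursors in the array. miR-466c-3p, with 2 precursors, had 12.5, 11.1 and 9.73 CPM in controls and 11.3, 9.22 and 8.81 CPM in caNrf2 libraries (log2 fold change -0.19 ± 0.16, edgeR adjusted p = 0.433). The count ratio of miR-466b-3p to miR-466c-3p ran from 2.19 to 3.03 over the libraries, a range not tested against counting error. miR-466e-3p, the third by level, had 3.58 ± 0.91 and 3.56 ± 0.26 CPM (SD, n = 3; edgeR adjusted p = 0.956).

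The miR-466 members with the smallest p were miR-466d-3p and miR-466g. miR-466d-3p had 1.54, 1.70 and 1.98 CPM in controls and 2.39, 2.83 and 1.90 CPM in caNrf2 libraries. It overlapped through caNrf2 library 3 (log2 fold change 0.41 ± 0.22, edgeR adjusted p = 0.197). miR-466g had 1.64, 1.22 and 1.83 CPM in controls and 1.96, 2.12 and 2.004 CPM in caNrf2 libraries. Its groups were apart by a narrow gap and did not pass (0.38 ± 0.21, edgeR adjusted p = 0.222). Mir466d is the next precursor after Mir297b, 300 bases on from start to start.

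In the miR-467 family the 5p strands lead. miR-467c-5p had 385, 444 and 590 counts in controls and 527, 754 and 807 in caNrf2 libraries, or 37.1, 27.0 and 29.1 CPM against 37.0, 31.3 and 28.9 CPM. The first library of each group was the highest, and the groups overlapped (log2 fold change 0.06 ± 0.16, edgeR adjusted p = 0.812). miR-467d-5p had 23.5, 26.1 and 26.5 CPM in controls and 30.7, 27.8 and 24.9 CPM in caNrf2 libraries (0.13 ± 0.14, edgeR adjusted p = 0.548). miR-467a-5p had 21.4, 22.6 and 20.7 CPM in controls and 19.7, 23.6 and 19.9 CPM in caNrf2 libraries (-0.03 ± 0.14, edgeR adjusted p = 0.891). The 95% interval of this last difference ran from -0.34 to 0.28. miR-467e-5p had 14.2, 9.13 and 10.5 CPM in controls and 12.4, 12.5 and 11.7 CPM in caNrf2 libraries, inside the control range (0.12 ± 0.18, edgeR adjusted p = 0.642).

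In the miR-669 family miR-669a-5p had the largest difference among the 7 leading members. It had 253, 372 and 529 counts in controls and 430, 729 and 774 in caNrf2 libraries. Its level was 24.4, 22.6 and 26.1 CPM in controls and 30.2, 30.3 and 27.7 CPM in caNrf2 libraries, without overlap, a ratio of means of 1.21. The log2 fold change of 0.27 ± 0.13 had a 95% interval of -0.03 to 0.56 and missed the threshold (edgeR, adjusted p = 0.169). Its sister strand miR-669a-3p had 7.71, 6.21 and 7.31 CPM in controls and 9.26, 8.27 and 6.80 CPM in caNrf2 libraries, which overlapped (0.19 ± 0.16, edgeR adjusted p = 0.411). The name miR-669a has 12 precursors in the array, the most of any member. Mir669a-3 among them is also matched to a 3p name of its own, miR-669a-3-3p.

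miR-669d-5p, with precursors Mir669d and Mir669d-2, had 2.12, 1.46 and 1.73 CPM in controls and 2.53, 2.74 and 2.18 CPM in caNrf2 libraries. It had the smallest p of its family, with a log2 fold change of 0.51 ± 0.20 that missed the threshold (edgeR, adjusted p = 0.0946). miR-669l-5p, with a single precursor, went the other way within its spread, from 6.33 ± 0.75 to 5.77 ± 0.61 CPM (SD, n = 3; -0.12 ± 0.14, edgeR adjusted p = 0.596). Of the 14 tested miR-669 members 10 had a positive and 4 a negative log2 fold change. In miR-466 the split was 9 to 5 and in miR-467 4 to 2, with log2 fold changes from -0.48 to 0.51 and from -0.09 to 0.13. All 697 tested miRNAs split 373 to 324, and the 296 outside the families with a mean under 10 CPM split 181 to 115.

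The 43 members left out of the test held 13 without a count and 30 with some, with a mean of at most 0.542 CPM each. The closest to the boundary were miR-669e-3p at 0.542 CPM, not tested, and miR-669h-5p at 0.553 CPM, tested. In 3 of the 30 the groups did not overlap, against 8.59% of all 722 untested names with a count. They were miR-297c-3p, miR-669m-3p (higher in caNrf2, 1 and 11 counts per group) and miR-466l-3p (lower in caNrf2, 4 and 1 counts per group). At these counts the separation has no test.

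The arm that gave most counts differed between the families and was the same in every library for miR-466, miR-467 and miR-669. In miR-467, 97.1% to 97.8% of a library's counts came from 5p strands, and the 5p arm was larger for all 5 names with both arms listed and a count. In miR-669 the 5p share was 81.95% to 84.9%, and the 5p arm was larger for all 12 such names. In miR-466, 79.7% to 85.2% came from 3p strands, and the 3p arm was larger for 9 of 12 names. The exceptions were miR-466f, miR-466h and miR-466o, with 60 against 21, 172 against 37 and 41 against 31 counts over the 6 libraries. miR-297 was mixed, with 37.5% to 51.1% from 3p strands. Its 3p share was 37.5%, 46.7% and 43.2% in controls and 46.8%, 51.1% and 47.0% in caNrf2 libraries, without overlap though the closest libraries hold 30 and 47 counts of the family. miR-297c had 37 counts on 3p and 2 on 5p, while miR-297a and miR-297b had 88 against 74 and 81 against 40 counts, the 5p arm first.

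The extremes of arm use were wide. miR-467c had 3507 counts on 5p and 11 on 3p, and miR-466p had 19 on 5p and 386 on 3p. miR-467b, miR-669c and miR-669h had 221, 380 and 62 counts on 5p and none on 3p. The genotypes did not separate: the 3p share of all member counts was 29.7%, 30.4% and 29.2% in controls and 31.1%, 29.0% and 28.05% in caNrf2 libraries, with means of 29.8% ± 0.58 and 29.4% ± 1.56 (SD, n = 3).

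**Figure D4:**
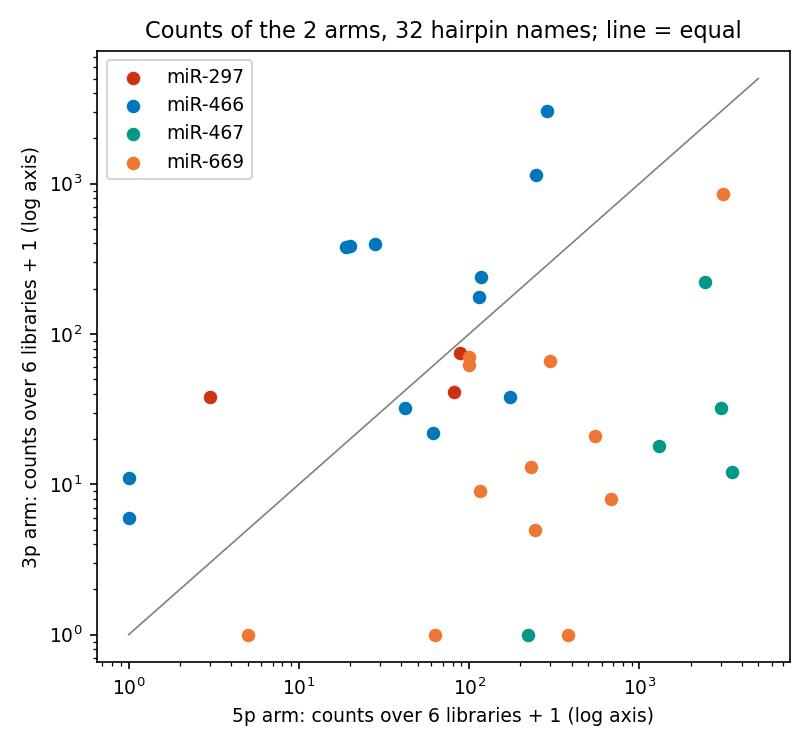
Counts of the 5p arm (horizontal) and the 3p arm (vertical) over 6 libraries for the 32 hairpin names with both arms listed and at least 1 count, each plus 1 on a log axis; the line marks equal counts. All miR-467 and miR-669 points lie below the line and 9 of 12 miR-466 points above it.

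Levels are given here by the number of annotated copies. The 59 members with 1 precursor held 48.4% of the member counts, those of miR-466b (8 precursors) 13.2%, of miR-467a (10) 10.4% and of miR-669a (12) 15.6%. miR-467c-5p, from the single precursor Mir467c (chromosome 2, 10473931 to 10474027), had 1.19 to 1.88 times the counts of miR-467a-5p, whose name has 10 precursors. miR-467b-5p, also from 1 precursor (10481248 to 10481320), was lower, and miR-467c-5p had 12 to 22.0 times its counts. How the counting treated reads that fit several of these copies could not be learned from the labels or headers, and its part in these differences was not tested.

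Some nearby precursors in the intron differed widely in level. The precursor before Mir467c is Mir466o, 1391 bases upstream from start to start, whose arms had 0.339 and 0.329 CPM against 31.7 CPM for miR-467c-5p. The closer neighbour, Mir466b-1, lies 288 bases after Mir467c. Its name has 8 precursors that the counts do not tell apart, and miR-466b-3p had a similar 27.3 CPM. Mir669k, which follows Mir466b-1 and Mir669a-3, gave 4 counts of its 5p strand in all and none of its 3p strand. Further along the array Mir467d (10507630 to 10507714) gave 26.6 CPM of miR-467d-5p. The next precursor, Mir466, 288 bases on, was matched to no member by name. Mir297c (10509016 to 10509113), which follows Mir466, gave 0.295 CPM of miR-297c-3p and 0.022 CPM of miR-297c-5p. Of 50 members with a single precursor in the intron, 43 had a count, with a median over the 50 of 0.334 CPM.

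**Figure D5:**
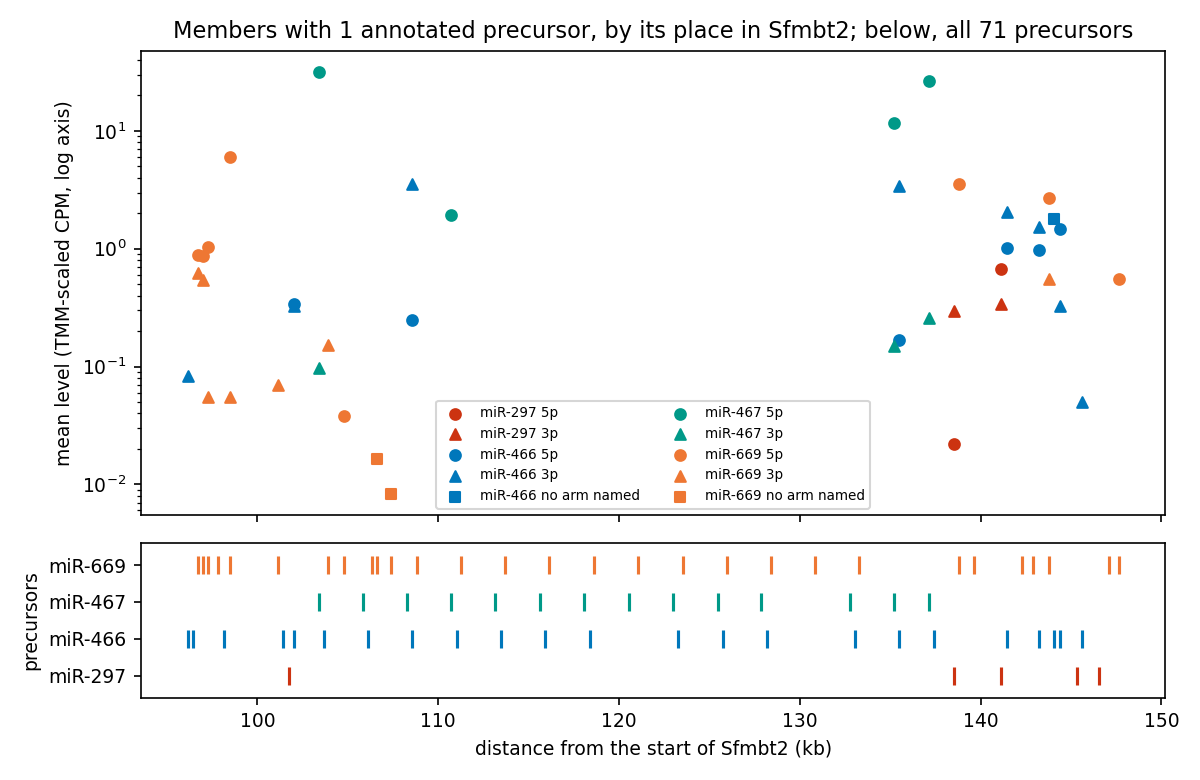
Top, mean level over 6 libraries (TMM-scaled CPM, log axis) of the 43 counted members with 1 annotated precursor, against the distance of that precursor from the start of Sfmbt2 in kb; shapes mark the arm and colours the family, and 7 such members without a count are not drawn. Bottom, all 71 precursors by family; miR-467c-5p and miR-467d-5p stand highest, at 31.7 and 26.6 CPM, with members under 1 CPM on both sides.

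Other miRNAs were examined that hold UGUGUGU or ACACACA in their mature strand, with no other likeness to the members measured. There are 9 such names outside the families in the RefSeq table, of which 3 were tested. The 2 that rose in caNrf2 fibroblasts, where 14.1% of all tested miRNAs did, are the arms of 1 hairpin, miR-672 on the X chromosome.
miR-672-5p: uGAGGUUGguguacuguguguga
miR-672-3p: aCACACAGucacuaucuucga
miR-574-5p: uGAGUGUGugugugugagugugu
Capitals again mark the seed. The strands lie at chrX:104116228-104116250 and chrX:104116192-104116212 (miR-672-5p and miR-672-3p, minus strand) and chr5:64970328-64970350 (miR-574-5p, plus), in the same build. miR-672-3p had 6, 10 and 14 counts in controls and 19, 37 and 54 in caNrf2 libraries, or 0.578, 0.609 and 0.691 CPM against 1.33, 1.54 and 1.93 CPM. Its log2 rise of 1.36 ± 0.27 (SE) passed the test (adjusted p = 0.00419 in edgeR) at 6 to 54 counts a library. miR-672-5p, far more abundant, had 42.3, 38.7 and 36.0 CPM in controls and 114, 104 and 99.8 CPM in caNrf2 libraries (1.44 ± 0.12, adjusted p = 2.57e-05 in edgeR). The third, miR-32-3p, had 2.44 ± 0.73 and 2.68 ± 0.20 CPM (SD, n = 3; log2 fold change 0.17 ± 0.22, edgeR adjusted p = 0.601). miR-574-5p, which holds a run of U and G, had 4 counts in controls and 2 in caNrf2 libraries. The annotation also lists 48 further miRNA genes inside Sfmbt2, all under Gm names, none of which matches a row of the counts by name.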

How the data were processed

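Small RNA libraries of primary dermal fibroblasts, 3 ctrl and 3 caNrf2, were analysed from the deposited files, each holding 1 library's raw counts by mature miRNA name. The submitters' processing notes list mm10 and, with no order or settings, the tools featureCounts, edgeR, Bowtie, cutadapt and CASAVA 1.8, and the file headers give all 6 libraries the same run and lane tag. How reads with several matching hairpins were counted, and from which miRNA release, is not given in the sources used here.

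Sample titles gave the groups and library numbers. No 2 libraries of a group were copies (lowest chi-square per degree of freedom 101). The test was edgeR's quasi-likelihood fit (4.0.16, run in R 4.3.3) with group as the only term and TMM factors, over the 697 miRNAs kept by filterByExpr at a minimum count of 10, and it was checked on simulated data. An SE is the log2 fold change over the root of F. CPM values use TMM-scaled library sizes, also for members not tested. The intervals of log2 fold changes come, like the SEs, from the quasi-likelihood fit and include variation between libraries. Floors come from counts and cover counting error only, since no molecular identifiers are named. The members and lists were chosen with earlier results of these data known. Members named were those called, the 3 most abundant and the 2 with the smallest p in each family, and every row with a mature sequence identical to one of these; the last part was not applied. Members given for arm use, precursor place or count separation were chosen after their values were seen. Precursors were matched by name, including RefSeq synonyms. Alternatives were RLE size factors, library totals, no filter, a stricter filter (mean 10 CPM or more), DESeq2 1.42.0, a replicate block and leaving out each library.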

Additional observations from a re-analysis of the deposited data

How the results depend on the processing

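The count of called members, 1 of 37, stayed at 1 with RLE size factors, library totals, no filter and the replicate block. It was 0 in DESeq2 and among the 7 members with a mean of at least 10 CPM, a filter that leaves miR-297b-5p out. Without 1 library at a time it ran from 0 to 1, at 0 without control library 3 or caNrf2 library 2. Over all miRNAs the count of called names stayed within 1.5 times the main 179, at 126 to 174 without 1 library. The 45 recomputed summed levels moved by less than the spread between libraries. For miR-297 the log2 ratio ran from 0.58 to 0.78 without 1 library, against 0.69. The number of members with at least 3 counts was 4.33 higher in caNrf2 libraries, against 0.33 higher at 1 count and -0.34 at the smallest depth. Only the 1-count number was thinned to the smallest depth. The 3-count number was not corrected for library totals, which were 10443268 to 20595024 in controls and 13733970 to 28237159 in caNrf2 libraries.

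Of 183 recomputed values of the 16 named members, 166 kept direction and side of the threshold, 3 lost the call (miR-297b-5p, given in the report) and 14 changed sign, all of them near 0 and uncalled. miR-466e-3p (0.02) went to -0.02 with RLE size factors and -0.03 in DESeq2. Leaving out 1 library at a time gave -0.11 to 0.20 for miR-466e-3p, -0.05 to 0.17 for miR-466b-3p, -0.05 to 0.19 for miR-467c-5p, -0.14 to 0.01 for miR-467a-5p, -0.01 to 0.30 for miR-467e-5p and -0.25 to 0.15 for miR-297a-5p. The cause was not tested. With the replicate block 189 miRNAs and 1 member were called. Deviations of same-numbered libraries from their group means correlated at 0.178, 0.114 and -0.218 across miRNAs, and those of differently numbered libraries at -0.357 to 0.357. Deviations from a mean of 3 libraries are bound to each other, so these values cannot decide whether the numbers pair the libraries. Summing rows of identical mature sequence was not run, since sequences were held for 8 of 80 members.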
